A study of Mus musculus with 15 samples.

Results

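Skeletal muscle transcripts were followed through 15 subcutaneous tumors of Renca, a mouse renal cell carcinoma line of BALB/c origin, with 36 genes of the contractile apparatus, calcium handling and energy supply of muscle fibres. The genes were taken by symbol, and 31 of the 36 had a row among the 18279 genes measured, while *Cav3*, *Trdn*, *Tcap*, *Myot* and *Myoz1* were not analysed here. They were picked with the normalized counts of these 15 tumors already known, so their levels and their differences between groups are a description and carry no support of their own. The study asked what loss of *Pbrm1*, which encodes a subunit of the PBAF chromatin remodeling complex, does to these tumors, and sequenced RNA of whole tumors. The control group was 5 tumors (tumors 1 to 5) whose labels name parental Renca cells, whereas the study's methods describe a control knockout CRISPR plasmid. The knockout groups were 5 tumors of clone 4 (tumors 6 to 10) and 5 of clone 18 (tumors 11 to 15), both made with a *Pbrm1* CRISPR/Cas9 plasmid and a repair plasmid that brings puromycin resistance and red fluorescent protein, and sorted as single cells. All cells were injected in Matrigel under the skin of the back of female BALB/c mice aged 4 to 6 weeks at the start, and mice were killed once a tumor reached 1000 mm3, ulcerated or caused distress. Whether the mice of these tumors had been given antibody is not given in the sources used here. Each group is 1 cell line, so genotype and line cannot be told apart, and p-values measure the spread between tumors of a line. Where all knockout tumors are compared with the controls, both clones are pooled, so the spread there also holds the difference between the clones.

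A skeletal muscle fibre shortens when thick filaments of myosin pull on thin filaments of actin, in sarcomeres bounded by Z discs. Calcium leaves the sarcoplasmic reticulum through the ryanodine receptor, binds troponin C on the thin filament and is pumped back by the calcium ATPase. Fibres are classed as slow or fast by the myosin heavy chain they use, and slow and fast fibres also carry their own troponins.

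Promoter sequences from RefSeq (GRCm38.p6) were found for 26 of the 31 genes, as the 250 bases before the annotated start of transcription. Shown 5′ to 3′ on the gene's own strand are *Acta1*, *Xirp2*, *Myh4* and *Ttn*, 4 genes with the same 5 highest tumors. *Myh4* had only 8.0 normalized counts in 1 of these, tumor 9. *Eno3*, an abundant gene without those tumors on top, is also shown. Capitals mark matches to the binding motifs of MEF2 and of serum response factor (the CArG box). The windows are chr8:123894776-123895025 (minus strand) for *Acta1*, chr2:67445752-67446001 (plus) for *Xirp2*, chr11:67237562-67237811 (plus) for *Myh4*, chr2:76982548-76982797 (minus) for *Ttn* and chr11:70656926-70657175 (plus) for *Eno3*.
Acta1: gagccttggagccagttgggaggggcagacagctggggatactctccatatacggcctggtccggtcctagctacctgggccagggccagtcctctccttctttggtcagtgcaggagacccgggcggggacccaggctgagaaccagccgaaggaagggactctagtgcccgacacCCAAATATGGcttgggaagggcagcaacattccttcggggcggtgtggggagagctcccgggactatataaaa
Xirp2: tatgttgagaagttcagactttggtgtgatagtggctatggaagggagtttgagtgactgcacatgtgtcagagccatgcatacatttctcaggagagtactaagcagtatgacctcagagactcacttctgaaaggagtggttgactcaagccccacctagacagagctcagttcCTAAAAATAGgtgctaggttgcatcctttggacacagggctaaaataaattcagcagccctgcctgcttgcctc
Myh4: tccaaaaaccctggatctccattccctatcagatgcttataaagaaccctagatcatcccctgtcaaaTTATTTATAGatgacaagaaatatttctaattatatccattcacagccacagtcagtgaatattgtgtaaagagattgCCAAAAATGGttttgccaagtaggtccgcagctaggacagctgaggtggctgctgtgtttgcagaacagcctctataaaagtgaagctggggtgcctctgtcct
Ttn: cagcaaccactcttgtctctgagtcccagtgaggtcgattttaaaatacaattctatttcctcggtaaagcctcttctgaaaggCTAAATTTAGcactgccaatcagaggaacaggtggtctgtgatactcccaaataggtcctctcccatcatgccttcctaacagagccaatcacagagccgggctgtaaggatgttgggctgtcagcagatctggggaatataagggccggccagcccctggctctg
Eno3: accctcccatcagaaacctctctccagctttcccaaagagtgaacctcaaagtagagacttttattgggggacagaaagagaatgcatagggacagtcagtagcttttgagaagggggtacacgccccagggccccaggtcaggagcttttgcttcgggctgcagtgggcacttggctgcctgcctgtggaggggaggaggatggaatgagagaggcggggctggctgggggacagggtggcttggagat
The match in *Acta1* is a CArG box that begins 73 bases before the start. In *Xirp2* and *Ttn* it is a MEF2 motif that begins 74 and 166 bases before the start, and *Myh4* holds a MEF2 motif 182 and a CArG box 104 bases before it, which do not overlap. Both motifs read the same on either strand, so a match counts for both. The windows of 13 genes that shared the 5 highest tumors of *Acta1* held a MEF2 match in 4 (*Myh1*, *Myh4*, *Ttn* and *Xirp2*), the other 13 in 1 (*Pvalb*), and 3.42% of 27025 genes held one. A CArG box was found in 2 (*Acta1* and *Myh4*) and in 1 (*Ldb3*) of these 13, and in 1.62% of all genes. The E-box CANNTG, the site of myogenic basic helix-loop-helix factors, was in 10 of the first 13 and 12 of the other 13, beside 69.3% of all genes. A match is a description of the letters in the window and does not show that a factor was bound.

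Muscle transcripts were a trace of each tumor's RNA. Between 32924414 and 49099168 reads per tumor fell on genes (median 40860659), and the tumors' normalized counts are read counts divided by 1 size factor per tumor. The targeted gene *Pbrm1* had 2751 ± 213 normalized counts (SD, n = 5) in clone 4 and 2838 ± 210 in clone 18, below 9012 ± 956 in the controls. The 31 muscle genes together took 0.0108% (tumor 6) to 0.0253% (tumor 15) of a tumor's normalized counts. *Des* and *Eno3*, the most abundant of them by the mean over all tumors, made up 47.8% to 91.7% of that sum, and the other 29 genes gave 0.000893% (tumor 6) to 0.012% (tumor 10) of the total, from 389 to 4929 reads. The 6 renal epithelial marker genes, which check the tumor label, summed to 97962.5 to 137860.2 in every tumor. In bulk tumor RNA, fewer cells of a type and less RNA per cell cannot be told apart.

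Without *Des* and *Eno3*, the summed normalized count stood highest in 5 knockout tumors. Control tumors 1 to 5 had sums of 1068.7, 1126.6, 803.9, 1130.6 and 618.6. In clone 4, tumors 6, 7 and 8 had 375.4, 478.0 and 507.5, below every control, while tumors 9 and 10 had 2294.9 and 5490.7. In clone 18, tumors 12 and 13 had 527.9 and 578.5, and tumors 11, 14 and 15 had 4833.1, 4393.0 and 4343.6. Tumors of the same clone thus lay on both sides of the control range. The sum is not scaled for gene length, and *Ttn*, with 116825 bases of exon, weighs most in tumor 10. There it gave 2772.6 of the 5490.7, beside 822.5, 1110.6 and 1043.4 in tumors 11, 14 and 15. In tumors 10, 11, 14 and 15 each of the 31 genes had more than 3 reads, in tumor 9 30 did, and in the other 10 tumors 18 to 27 did. A value of 0 allows up to 3 reads, for counting error only.

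The order of tumors was shared by some of the genes and not by the others. Tumors 9, 10, 11, 14 and 15 were the 5 highest for *Acta1*, and for 16 of the 31 genes in all, *Acta1* included, against 0.197% (36) of the 18250 genes tested, a share that is set beside it without being read as evidence since the genes were chosen on these values. The 16 were *Acta1*, *Ckm*, *Myh1*, *Myh2*, *Myh4*, *Mylpf*, *Mybpc1*, *Tnnt3*, *Tnni2*, *Tnnc2*, *Neb*, *Ttn*, *Actn2*, *Xirp2*, *Atp2a1* and *Ryr1*. The gap between the fifth and the sixth tumor was wide for *Myh2* (37.5 and 2.5), *Acta1* (273.1 and 39.5) and *Xirp2* (74.0 and 11.6), and narrow for *Ryr1* (45.5 and 41.8), *Mylpf* (94.7 and 84.7) and *Myh4* (8.0 and 6.3). Control tumor 1 was the sixth for *Acta1*, *Myh1*, *Ttn*, *Neb* and *Tnnc2*, among others.

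**Figure D1:**
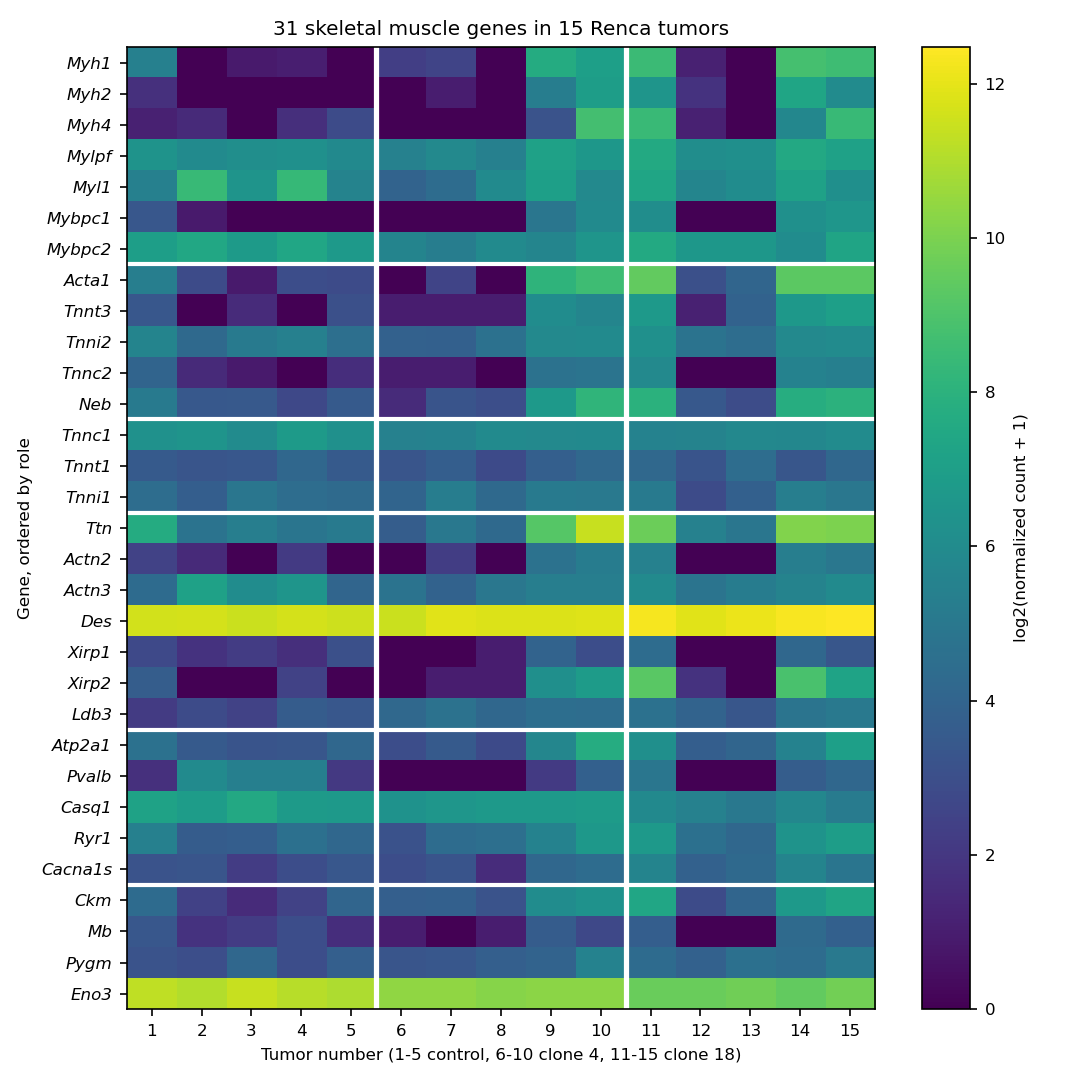
Heat map of the 31 muscle genes (rows, grouped by role) in the 15 tumors (columns), colored by log2(normalized count + 1). Bright columns for tumors 9, 10, 11, 14 and 15 run through the fast myosins, apart from *Myh4* in tumor 9. They also run through the actin and fast troponin rows and *Ttn*, while *Eno3*, *Casq1*, *Tnnc1* and *Tnnt1* have no such columns.

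Among the thick filament genes, the adult fast myosin heavy chains went from 0 to 441.0 normalized counts. *Myh1*, the IIx heavy chain, on chromosome 11 from 67200052 to 67224575, had 41.8, 0, 0.9, 1.1 and 0 in control tumors 1 to 5, 3.9, 4.8, 0, 200.3 and 129.2 in clone 4 tumors 6 to 10, and 366.4, 1.2, 0, 441.0 and 384.0 in clone 18 tumors 11 to 15. Its 5 knockout tumors from 129.2 upward lay above every control, and the other 5 lay within the control range. *Myh4*, the IIb heavy chain, from 67238029 to 67260446 on the same chromosome, had 1.2, 1.8, 0, 2.2 and 6.3 in the controls, 0, 0, 0, 8.0 and 431.1 in clone 4, and 351.1, 1.2, 0, 53.1 and 333.6 in clone 18. Tumor 9, with 200.3 of *Myh1*, had next to no *Myh4*. *Myh2*, the IIa heavy chain, reached 161.4 in tumor 14 and was at 0 in 7 tumors. *Mylpf*, the fast regulatory light chain, varied least of this group, with 84.7, 60.8, 71.4, 76.2 and 60.3 in the controls, 43.4, 58.3, 42.8, 141.1 and 94.7 in clone 4, and 190.8, 68.9, 73.3, 182.4 and 137.7 in clone 18. *Mybpc1*, the slow myosin-binding protein C, was at 28.4 to 94.0 in the 5 high tumors, 9.3 in tumor 1 and at most 0.9 elsewhere.

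*Myl1*, the alkali light chain of fast fibres, and *Mybpc2*, the fast myosin-binding protein C, went another way. *Myl1* was highest in control tumors 2 and 4, with 340.0 and 328.3, beside 14.5 to 160.2 in all knockout tumors. *Mybpc2* had 104.7 to 177.9 in the controls, 38.2 to 89.1 in clone 4 and 66.2 to 192.9 in clone 18, so that clone 4 lay below the controls without overlap.

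The mix of the fast heavy chains differed between tumors that all held muscle transcripts. As a share of the reads of *Myh1*, *Myh2* and *Myh4* in a tumor, *Myh4* took 3.24% in tumor 9 (95% Wilson interval 1.58 to 6.54, 216 reads), 8.1% in tumor 14 (6.25 to 10.4, 654 reads), 42.6% in tumor 15 (39.0 to 46.3, 699 reads), 43.5% in tumor 11 (40.1 to 47.0, 791 reads) and 63.0% in tumor 10 (59.1 to 66.8, 614 reads). Tumors 15 and 11 did not differ beyond these intervals, and the other neighbours in this order did not overlap, apart from tumors 9 and 14, whose intervals met. *Myh1* took 81.5% in tumor 9 and 67.3% in tumor 14 but 18.9% in tumor 10. *Myh2* took 8.3% in tumor 15 (6.47 to 10.6) and the most, 24.6% (21.5 to 28.1), in tumor 14. Control tumor 1 had 39 reads, 36 of them *Myh1*. The intervals cover counting error only. The genes lie side by side on chromosome 11 and are close paralogs, so how reads were split between them is uncertain.

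**Figure D2:**
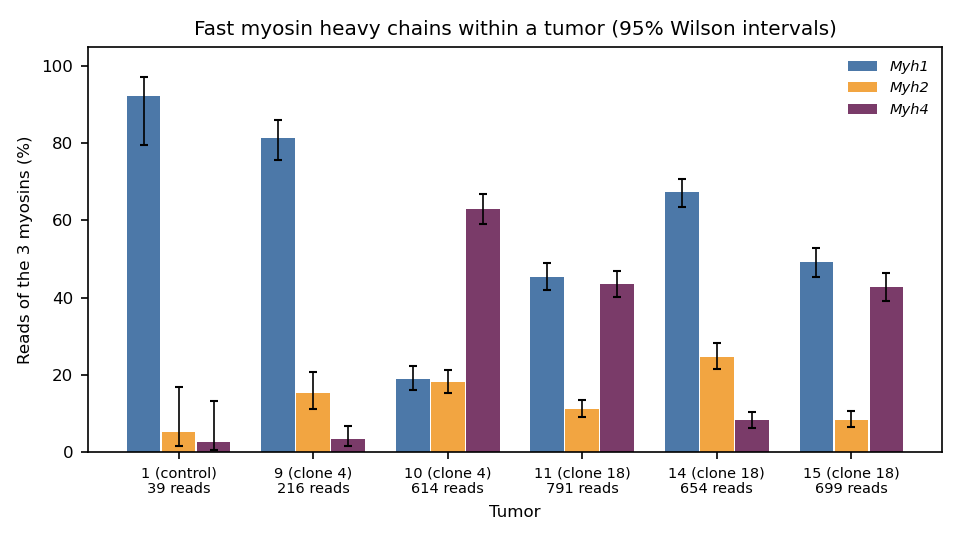
Share of the reads of 3 fast myosin heavy chains (y axis, percent) in the 6 tumors with at least 30 such reads (x axis), with 95% Wilson intervals for counting error as bars. *Myh4* ranges from 3.24% in tumor 9 to 63.0% in tumor 10.

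Of the thin filament genes, *Acta1*, skeletal alpha-actin, spanned the widest range of all 31 genes, taken as the ratio of the highest to the lowest tumor on normalized count + 1 (722). On chromosome 8 from 123891769 to 123894751, it had 39.5, 6.2, 0.9, 6.7 and 6.3 in the controls, 0, 4.8, 0, 273.1 and 386.5 in clone 4, and 720.5, 7.4, 15.7, 648.5 and 635.9 in clone 18. The 5 high tumors held at least 273.1 and no other tumor more than 39.5. *Tnnt3*, fast troponin T, had 9.3, 0, 1.9, 0 and 7.4 in the controls, 1.0, 1.0, 1.0, 66.0 and 50.1 in clone 4, and 102.0, 1.2, 14.4, 100.2 and 128.7 in clone 18. *Tnni2*, fast troponin I and its neighbour on chromosome 7, varied less, with 48.7, 18.5, 34.3, 42.6 and 22.2 in the controls, 13.5, 13.4, 23.9, 56.9 and 61.3 in clone 4, and 76.5, 25.8, 20.9, 58.1 and 63.8 in clone 18. Control tumors 1 and 4 came close to the 5 high tumors for *Tnni2* and far below them for *Tnnt3*. *Neb*, nebulin, ran from 1.9 to 288.5, and *Tnnc2*, fast troponin C, from 0 to 57.1. Exons of *Tnnc2* overlap those of the cell cycle gene *Ube2c* on the other strand, and the strand setting of the counting is not given in the sources used here.

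The slow troponins differed among themselves. *Tnnc1*, slow troponin C, had 78.9, 87.2, 64.9, 112.1 and 75.1 in the controls, 44.4, 44.9, 60.7, 58.0 and 60.2 in clone 4, and 44.9, 46.8, 55.0, 53.1 and 63.8 in clone 18, so all 10 knockout tumors lay below every control. *Tnnt1*, slow troponin T, had 10.4, 8.8, 9.3, 16.8 and 10.6 in the controls, 8.7, 12.4, 6.0, 12.5 and 17.8 in clone 4, and 17.3, 8.6, 20.9, 9.0 and 16.8 in clone 18. *Tnni1*, slow troponin I, had 20.9, 12.3, 28.7, 21.3 and 19.0 in the controls, 15.4, 38.2, 17.9, 33.0 and 32.3 in clone 4, and 33.7, 6.2, 13.1, 40.1 and 30.2 in clone 18. Both overlapped between all groups. For *Tnni1* the 5 tumors high in *Acta1* had 30.2 to 40.1 and the others 6.2 to 28.7 apart from tumor 7, whereas *Tnnc1* and *Tnnt1* did not have those 5 tumors on top. On a scale per kilobase of exon, fast *Tnnc2* made up 35.9% to 62.3% of *Tnnc1* plus *Tnnc2* in the 5 high tumors, 19.9% in control tumor 1 and at most 3.51% elsewhere. The exon length of *Tnnc2* used here includes the bases that overlap *Ube2c*, so the size of this share is uncertain. For the troponin T pair the fast share was 79.7% to 93.9% in those 5 tumors and 0% to 55.5% in the others. The fast share of the troponin I pair was 77.7% to 84.5% there and 45.8% to 90.9% in the others, with no order by tumor. *Tnnc1* begins 86719 bases past the end of *Pbrm1* on chromosome 14, and the part of that position in its level was not tested.

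**Figure D3:**
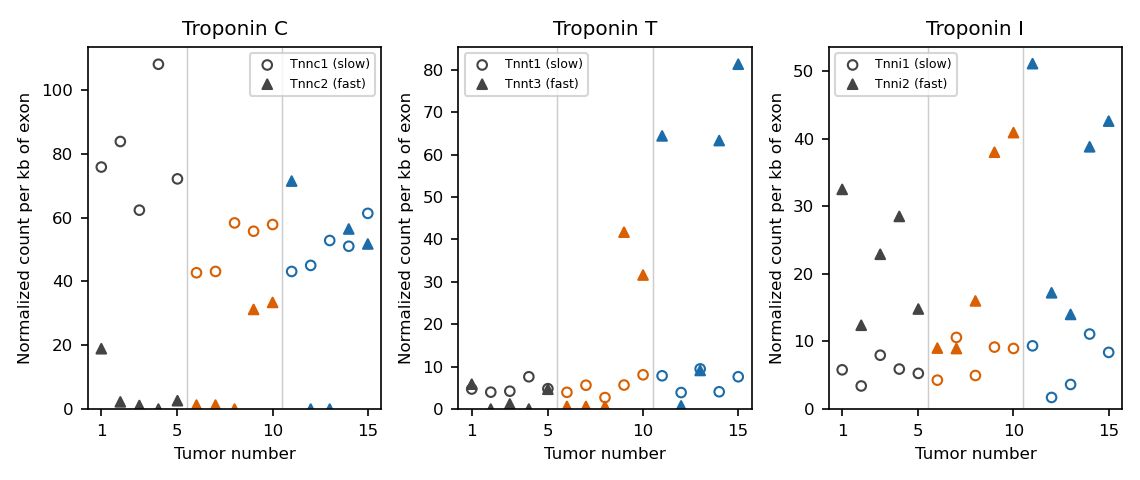
Normalized count per kilobase of exon (y axis) of the slow (open circles) and fast (filled triangles) troponins C, T and I in tumors 1 to 15 (x axis; grey control, orange clone 4, blue clone 18). Fast troponins C and T stand up in tumors 9, 10, 11, 14 and 15, while slow *Tnnc1* and *Tnnt1* do not, and slow *Tnni1* is at 8.39 to 11.1 there and at most 7.97 in the other tumors apart from tumor 7, at 10.6.

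At the Z disc and in the sarcomere scaffold, *Ttn*, titin, the giant spring of the sarcomere, had 200.8, 26.4, 39.9, 28.0 and 34.9 in the controls, 11.6, 30.6, 17.9, 578.0 and 2772.6 in clone 4, and 822.5, 44.3, 28.8, 1110.6 and 1043.4 in clone 18. Tumor 10 stood above all others. Per kilobase of exon, titin was 0.0943 of the *Acta1* level in tumor 10 and 0.015 to 0.0278 of it in tumors 9, 11, 14 and 15. *Xirp2*, which encodes an actin-binding repeat protein of muscle, had 11.6, 0, 0, 4.5 and 0 in the controls, 0, 1.0, 1.0, 74.0 and 112.5 in clone 4, and 630.7, 2.5, 0, 471.1 and 151.1 in clone 18. Relative to *Acta1*, per kilobase, it was 0.112 in tumor 11 and 0.0931 in tumor 14, against 0.0305 to 0.0373 in tumors 9, 10 and 15. *Actn2*, alpha-actinin of the Z disc, ran from 0 to 43.9 with the same 5 tumors on top, whereas *Actn3*, the fast-fibre form, was highest in control tumors 2 (138.3) and 4 (90.8). *Xirp1*, a relative of *Xirp2*, never passed 20.4.

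*Des*, desmin, is the intermediate filament of muscle and also of pericytes and smooth muscle, and it was the most abundant of the 31 genes. It had 3126.4, 3220.0, 2814.4, 3264.1 and 2974.2 in the controls, 2809.1, 3830.9, 3624.6, 3597.7 and 3765.2 in clone 4, and 5113.7, 3803.1, 4446.6, 5187.2 and 5699.5 in clone 18. All of clone 18 and 4 of 5 clone 4 tumors lay above every control, and tumors 12 and 13, which had 7.4 and 15.7 of *Acta1*, were among them. *Ldb3*, a PDZ and LIM protein of the Z disc, had 3.5 to 11.2 in the controls, 16.9 to 24.8 in clone 4 and 9.2 to 32.5 in clone 18, with 9 of 10 knockout tumors above every control.

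Of the genes of calcium handling, *Atp2a1*, the fast-fibre calcium pump, had 24.4, 10.6, 8.3, 9.0 and 16.9 in the controls, 6.0, 10.5, 6.0, 51.2 and 209.4 in clone 4, and 74.5, 12.3, 15.7, 45.1 and 129.9 in clone 18. As for *Ttn* and *Myh4*, tumor 10 was the highest. Its exons overlap those of *Rabep2* on the other strand. *Pvalb*, parvalbumin, a calcium buffer of the fastest fibres, had 2.3, 61.7, 40.8, 40.3 and 3.2 in the controls, 0, 0, 0, 3.4 and 13.4 in clone 4, and 28.6, 0, 0, 12.0 and 16.8 in clone 18. Control tumors 2, 3 and 4 were thus its highest, although they had at most 6.7 of *Acta1*. *Casq1*, the calcium-storing calsequestrin of fast fibres, had 143.9, 118.9, 183.6, 112.1 and 101.5 in the controls, 81.0, 94.6, 103.4, 107.0 and 115.9 in clone 4, and 59.2, 44.3, 31.4, 54.1 and 35.8 in clone 18. Clone 18 lay below both other groups without overlap, in tumors high and low in *Acta1* alike. *Ryr1*, the ryanodine receptor, ran from 7.7 to 123.1, and *Cacna1s*, the voltage sensor that opens it, from 2.0 to 48.1, with 7 knockout tumors above every control.

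Among the genes of energy supply, *Ckm*, muscle creatine kinase, had 19.7, 4.4, 1.9, 4.5 and 15.9 in the controls, 12.5, 13.4, 8.0, 67.1 and 82.4 in clone 4, and 164.3, 6.2, 15.7, 107.3 and 156.7 in clone 18. The 5 high tumors lay above every control. *Mb*, myoglobin, the oxygen store of oxidative fibres, had 9.3, 2.6, 3.7, 6.7 and 2.1 in the controls, 1.0, 0, 1.0, 11.4 and 5.6 in clone 4, and 12.2, 0, 0, 19.0 and 13.4 in clone 18, which rests on few reads. *Eno3*, the muscle form of the glycolytic enzyme enolase, had 2455.6, 2135.8, 2786.6, 2238.8 and 1970.8 in the controls, 1349.1, 1358.8, 1191.6, 1276.6 and 1253.2 in clone 4, and 782.7, 777.6, 880.9, 716.7 and 913.5 in clone 18. The groups did not overlap, with the controls highest and clone 18 lowest, and the tumors high in *Acta1* did not stand apart from the others of their clone. *Pygm*, muscle glycogen phosphorylase, ran from 6.7 to 44.6.

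**Figure D4:**
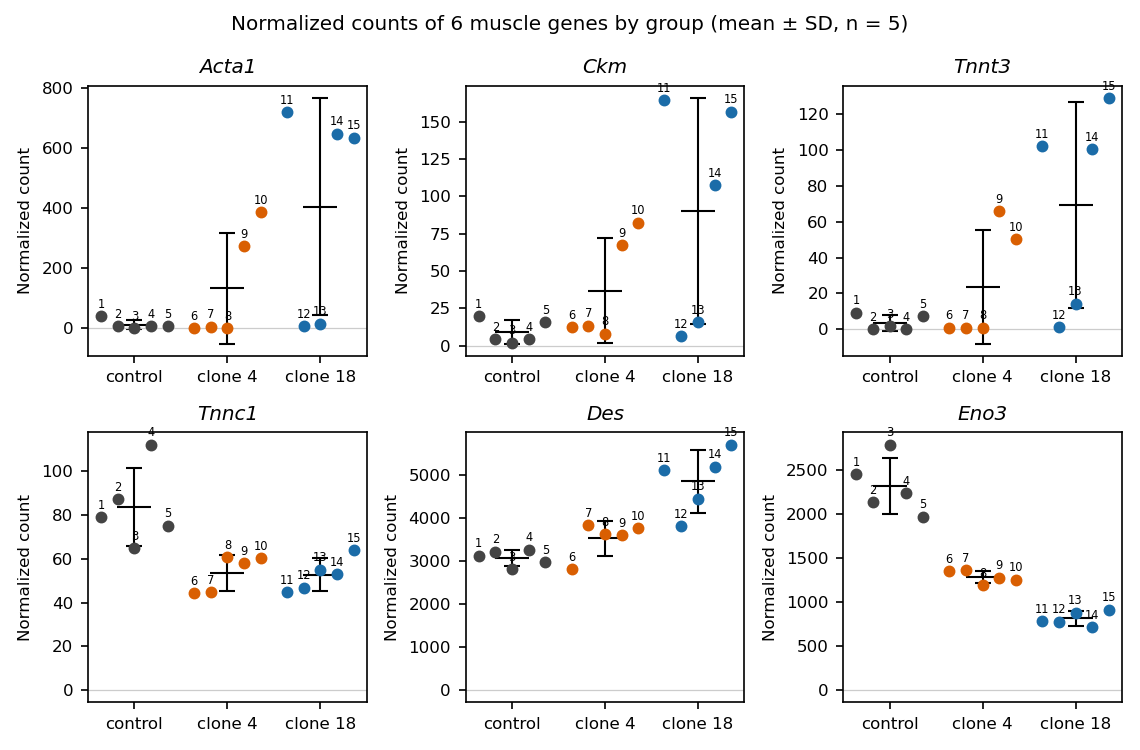
Normalized counts (y axis, linear, a separate scale per gene) of *Acta1*, *Ckm*, *Tnnt3*, *Tnnc1*, *Des* and *Eno3* in each tumor (numbered points) by group, with the mean and SD (n = 5) as black bars. The upper genes split each clone into high and low tumors, while *Tnnc1* and *Eno3* put every knockout tumor below every control.

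In group means, *Acta1* and *Ttn* had SDs near or above their means. *Acta1* had 11.9 ± 15.6 (SD, n = 5) in the controls, 133 ± 184 in clone 4 and 406 ± 361 in clone 18, and *Ttn* 66.0 ± 75.6, 682 ± 1190 and 610 ± 534. *Eno3* had 2318 ± 316, 1286 ± 69.6 and 814 ± 80.9, *Des* 3080 ± 185, 3526 ± 412 and 4850 ± 735, *Casq1* 132 ± 32.8, 100 ± 13.3 and 45.0 ± 11.8, and *Tnnc1* 83.6 ± 17.8, 53.6 ± 8.27 and 52.7 ± 7.49.

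Between all 10 knockout and the 5 control tumors, 2 of the 31 genes were higher and 3 lower at an adjusted p under 0.05 (limma on log2(normalized count + 1), adjusted over all 18250 genes), beside 9.23% and 12.9% of all genes, from which nothing is read. The higher genes were *Ldb3*, at 1.49 on the log2 scale (standard error 0.31, adjusted p = 0.0021), and *Des*, at 0.42 (0.13, adjusted p = 0.0258). The lower genes were *Eno3*, with -1.17 (0.16, adjusted p = 4.37e-05), *Tnnc1*, with -0.63 (0.16, adjusted p = 0.0103), and *Casq1*, with -0.95 (0.30, adjusted p = 0.0295). *Casq1* had an adjusted p of 0.0681, 0.0509 and 0.0895 without control tumor 1, 2 or 3, and *Des* of 0.0687 and 0.0574 without control tumor 3 or 5. *Myh1* and *Acta1* did not pass, with log2 differences of 3.17 (standard error 1.59, adjusted p = 0.173) and 2.47 (1.59, adjusted p = 0.299). *Ckm*, at 2.18 (0.78, adjusted p = 0.0531), did not pass either, but its adjusted p was 0.0291 to 0.0451 when tumor 1, 6, 7, 8 or 12 was left out. The median log2 difference of the 31 genes was 1.01, beside -0.02 for all genes.

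Count models on the recovered reads called more of them. In this comparison edgeR's quasi-likelihood test called 9 higher and 3 lower, beside 10.6% and 11.9% of all genes, and DESeq2 called 13 higher and 3 lower, beside 11.7% and 14.1%. Besides *Des* and *Ldb3*, both called *Acta1* (adjusted p = 0.0328 and 0.00832), *Ckm*, *Myh2*, *Myh4*, *Neb*, *Tnnt3* and *Xirp2* higher, in each of which 5 or 6 of the 10 knockout tumors lay above every control.

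Taken clone by clone against the same 5 control tumors, 1 gene was higher and 3 were lower in clone 4, beside 6.79% and 10.0% of all genes. These were *Ldb3* (log2 difference 1.50, adjusted p = 0.0083), and *Eno3* (-0.84, adjusted p = 5.89e-06), *Mybpc2* (-1.26, adjusted p = 0.00535) and *Tnnc1* (-0.62, adjusted p = 0.0343), all from limma. *Casq1* and *Des*, called for all knockout tumors together, were not called in clone 4 by limma. There they had log2 differences of -0.37 (adjusted p = 0.267) and 0.19 (adjusted p = 0.236). In clone 18, 4 were higher and 3 lower, beside 10.4% and 14.2%. The higher genes were *Ckm* (2.69, adjusted p = 0.0346), *Cacna1s* (1.83, adjusted p = 0.0122), *Ldb3* (1.48, adjusted p = 0.00668) and *Des* (0.64, adjusted p = 0.000226). The lower genes were *Eno3* (-1.50, adjusted p = 5.96e-09), *Casq1* (-1.54, adjusted p = 6.48e-05) and *Tnnc1* (-0.64, adjusted p = 0.0215). Without tumor 12 or without tumor 13 the count for clone 18 was 11. Adjusted p-values were 0.0547 to 0.0997 for *Tnnc1* in clone 4 without tumor 1, 2, 4, 6 or 7, and 0.0638 and 0.0509 in clone 18 without tumor 4 or 11. For *Ckm* in clone 18 they were 0.0675 to 0.0891 without tumor 2, 3, 4, 11, 14 or 15. For clone 18, edgeR called 13 higher and 3 lower, beside 12.2% and 12.6% of all genes, and DESeq2 also 13 and 3, beside 12.6% and 14.8%.

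Directly between the clones, 2 genes were higher and 2 lower in clone 18, beside 2.49% and 2.13% of all genes. *Des* was 0.46 higher (standard error 0.10, adjusted p = 0.0143) and *Mybpc2* 1.02 higher (0.28, adjusted p = 0.0495), and *Casq1* differed by -1.17 (0.21, adjusted p = 0.00305) and *Eno3* by -0.66 (0.09, adjusted p = 0.000229). *Acta1* differed by 3.21 (1.71, adjusted p = 0.337). The call of *Mybpc2* was lost in 13 of the 15 fits that left out 1 tumor, all but those without tumor 10 or tumor 14, at adjusted p-values of 0.0509 to 0.118, and with a pseudocount of 5 (adjusted p = 0.0519). The tests between clones are limma fits with 1 term per group.

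**Figure D5:**
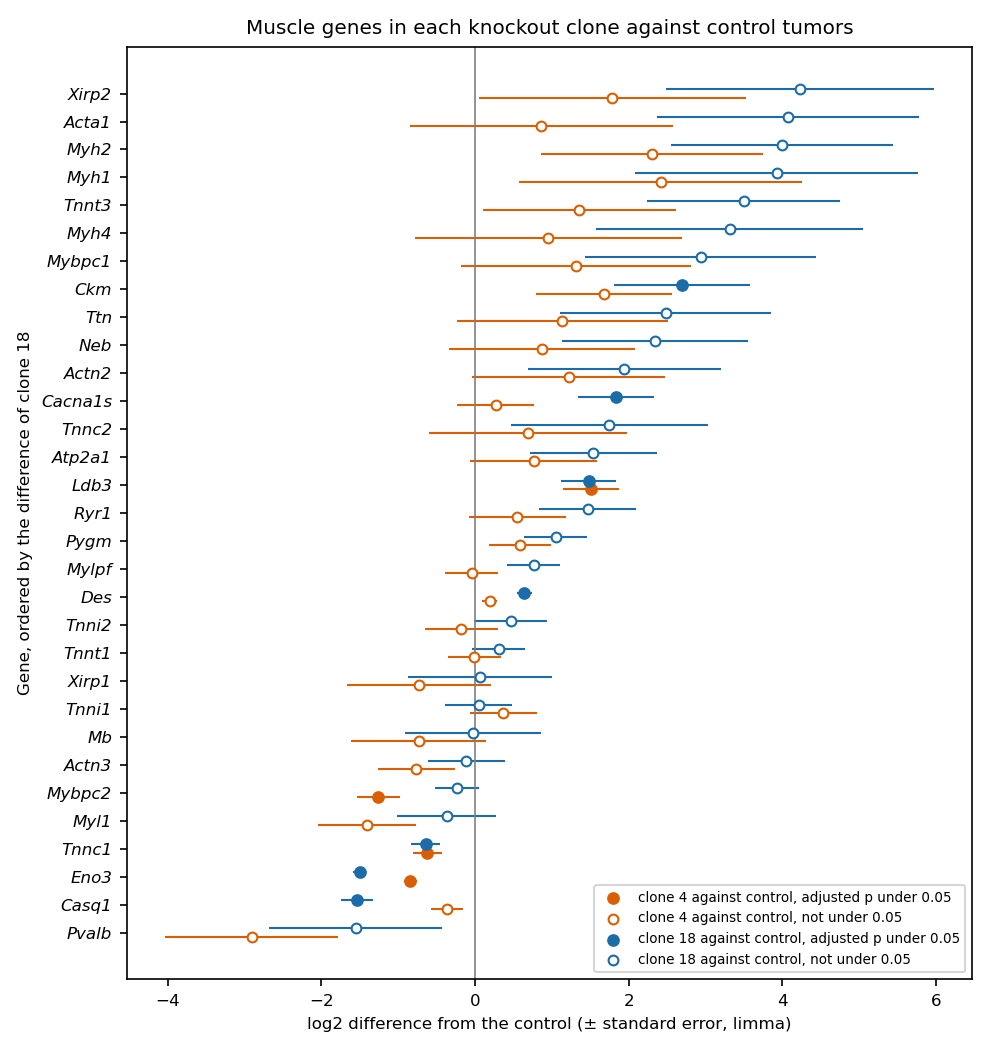
Log2 difference of each of the 31 genes from the control (x axis, ± standard error from limma) in clone 4 (orange) and clone 18 (blue), ordered by clone 18, with filled points where the adjusted p was under 0.05. The widest differences, for *Xirp2*, *Acta1* and the myosins, carry standard errors above 1 on the log2 scale, while *Eno3*, *Casq1*, *Tnnc1*, *Des* and *Ldb3* have small ones.

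A further list of 66 muscle genes, written without regard to how they moved but with these data already described, had 45 genes with a row. Of these, 2 were higher and 7 lower in knockout tumors, 0 and 7 in clone 4, 2 and 10 in clone 18, and 1 and 2 in clone 18 against clone 4, beside the shares of all genes given above for each comparison, and their median log2 difference was 0.01 for all knockout tumors. The gene with the smallest adjusted p was *Chrna1*, the alpha subunit of the muscle acetylcholine receptor, which had 39.1 to 85.9 normalized counts in the controls, 4.5 to 11.4 in clone 4 and 5.1 to 22.3 in clone 18, and its log2 difference for all knockout tumors was -2.74 (standard error 0.34, adjusted p = 2.52e-05, limma). *Myom2*, an M band protein, had 56.0 to 111.4 in the controls and 8.2 to 31.2 in knockout tumors (-2.25, standard error 0.30, adjusted p = 3.81e-05). *Cox6a2*, the muscle form of a cytochrome c oxidase subunit, fell with -1.95 (adjusted p = 0.00182). *Fbxo32*, a ubiquitin ligase known from muscle atrophy, fell with -0.97 (adjusted p = 0.000331). *Trim63*, another such ligase, was lower in clone 18 than in the control (-1.45, adjusted p = 0.000573) and than in clone 4 (-1.14, adjusted p = 0.0152). *Pfkm*, the muscle form of phosphofructokinase, was lower in clone 4 than in the control (-0.38, adjusted p = 0.000418). None of these 6 had the 5 highest tumors of *Acta1*. Of the 45 genes, 2 did, *Csrp3*, a LIM protein of striated muscle, with 12.3 to 50.0 in those tumors and at most 2.6 elsewhere, and *Hspb7*, a small heat shock protein of muscle, with 24.6 to 48.0 and at most 20.1.

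Over all 16465 genes outside the list with a mean of at least 10, the pattern most like the mean log2 level of the 31 genes over the 15 tumors was that of *Csrp3* (Pearson r 0.943), with high values also for *Kcnn1* (0.881), *Rpap2* (0.841), *Hdac11* (0.818), *Cmya5* (0.804), *Ranbp9* (0.786), *Tubb4a* (0.783), *Tll1* (0.783) and *Fam172a* (0.781). These values describe likeness over 15 tumors that share 3 cell lines and that fall into a high and a low set, and carry no p. They do not measure the size of a change. *Rpap2* ran only from 1050.1 to 1340.1, *Ranbp9* from 3429.1 to 4492.6 and *Fam172a* from 1307.2 to 1656.5. Wider ranges were those of *Csrp3* (0 to 50.0), *Cmya5* (4.8 to 123.6) and *Kcnn1* (58.7 to 229.5). *Csrp3* and *Cmya5* are known from striated muscle.

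Markers of other tissues did not follow the muscle transcripts in one way. Of 11 genes of myogenic cells only *Myh3* and *Myh8*, the embryonic and perinatal myosin heavy chains, had a row. *Myh8* was 43.2 in tumor 9, 25.5 in tumor 1, 22.1 in tumor 14 and 12.3 or less in the others. *Myh3* was 14.5 to 21.4 in tumors 9, 10, 11, 14 and 15, those high in *Acta1*. It was 1.1 to 24.4 in the others, with 24.4 in tumor 1, 18.3 in tumor 6 and 19.9 in tumor 8. The regulators *Myod1*, *Myog*, *Myf5* and *Pax7* were not analysed here. Of 8 keratinocyte markers 3 had a row, and they summed to 0 to 20.0 per tumor, highest in tumor 14, with *Krt5* and *Krt14* at 0 in 12 and 13 tumors. The 7 fibroblast markers summed to 192817.4 in tumor 10, the highest, and to 19388.6 (tumor 6) to 131687.8 in the others. The 7 of 8 smooth muscle markers with a row were also highest in tumor 10, at 9733.8, and lowest in tumor 9, at 2498.5. Of the adipocyte list, *Fabp4* was 1406.9 in tumor 10 and 219.6 to 638.5 elsewhere. The other adipocyte genes with a row were not high in tumor 10. *Cfd*, *Cidec*, *Adipoq*, *Retn* and *Plin1* were highest in control tumor 2, at 423.6, 68.7, 66.1, 41.4 and 15.9. In tumor 10 these were at 3.3, 2.2, 1.1, 2.2 and 0. *Lep* was highest in control tumor 1 (15.1) and at 0 in tumor 10. Endothelial markers summed to 4758.7 to 11268.9. Peripheral nerve markers summed to 570.3 to 769.4 in the controls and to 298.3 to 489.6 in knockout tumors. Of 7 cardiac markers 4 had a row, and their sum was 240.0 to 388.8 in the controls and 102.5 to 173.4 in knockout tumors. Of these, *Myl4* had 188.2 to 253.0 in the controls and 65.2 to 99.0 in knockout tumors, while *Tnnt2*, *Tnni3* and *Nppb* overlapped. The part of these tissues in the muscle levels was not tested.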

How the data were processed

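RNA of 15 tumors was sequenced, 5 per group. The deposited signal values are normalized counts, for which the authors aligned reads to mm10 (tophat2), counted reads on genes (HTSeq), divided by DESeq size factors and rounded to 0.1. Columns without a tumor numbered 0. Versions, gene annotation and strand setting are not given in the sources used here. Undoing the size factors gave whole reads (tolerance 0.051) for at least 99.98% of values up to 8000 in a tumor, with 32924414 to 49099168 reads on genes. Low counts limit the precision of genes with few reads.

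Of 18279 genes, 29 were at 0 in every tumor. On the remaining 18250, groups were compared on log2(normalized count + 1) with limma 3.58.1 with trend, in 1 fit of 10 knockout against 5 control tumors and 1 fit with a term per group, with Benjamini-Hochberg adjustment at 0.05 over all genes. A fold change on this scale understates that of low genes. The fits were run on simulated counts in which a changed gene had the same fold in every knockout tumor. A split of a clone into high and low tumors was not simulated, so this run does not cover genes with such a split. Exon lengths and overlaps are from GENCODE M21 and promoters from RefSeq, both on GRCm38. Intervals are 95% Wilson intervals.

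The genes and lists were chosen with earlier results of these data known. Values in every tumor are given, in each role (thick filament, thin filament, slow troponins, Z disc and scaffold, calcium and membrane, energy and oxygen), for the 2 genes with the largest and the 1 with the smallest ratio of highest to lowest tumor (on normalized count + 1), for other muscle genes up to 6 by smallest adjusted p, and for likeness the 10 highest r, of which 1 gene is not reported here. Genes named beyond these were chosen after their values were seen. Alternatives were pseudocounts of 0.1 and 5, a mean of at least 10 (passed by 29 of the 31 genes), upper quartile scaling, recovered reads tested with edgeR 4.0.16 or DESeq2 1.42.0, each tumor left out in turn and, for the summed level, a sum per kilobase. Software was Python 3.11.15 with pandas 2.3.3, numpy 2.4.6 and matplotlib 3.10.9, and R 4.3.3.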

Additional observations from a re-analysis of the deposited data

Results flagged for a closer look

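Over the 18 genes given tumor by tumor and the summed level without *Des* and *Eno3*, 57 groups of 5 tumors were tested, and of these 9 held 1 tumor that lay apart from the other 4 by Dixon's criterion, where chance gives about 1 in 20, or 2.85. Genes of the same tumors do not count as independent groups. Most of the genes were also picked for a large ratio of highest to lowest tumor in these same data. Nothing is therefore read from the 9 beside 2.85. Control tumor 1 lay apart in *Acta1* (39.5 against 0.9 to 6.7), *Myh1* (41.8 against 0 to 1.1) and *Ttn* (200.8 against 26.4 to 39.9), and control tumor 4 in *Tnnt1* (16.8 against 8.8 to 10.6). In clone 4, tumor 10 lay apart in *Myh4* (431.1 against 0 to 8.0), *Ttn* (2772.6 against 11.6 to 578.0), *Atp2a1* (209.4 against 6.0 to 51.2) and *Pvalb* (13.4 against 0 to 3.4), and tumor 6 in *Des*, as the low one (2809.1 against 3597.7 to 3830.9).

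The difference from the control was not the same in both clones for 7 genes, by the limma test of clone 18 against clone 4. These were 4 of the 31 genes and 3 of the 45 other muscle genes. In the same test 2.49% of all 18250 genes were higher and 2.13% lower in clone 18, so nothing is read from the count. The log2 difference was -1.17 for *Casq1*, 0.46 for *Des*, -0.66 for *Eno3* and 1.02 for *Mybpc2*, which lost its call in 13 of 15 fits without 1 tumor (adjusted p from limma 0.0509 to 0.118), and among the other muscle genes -1.14 for *Trim63*, -1.96 for *Capn3*, a muscle protease, and 0.32 for *Pfkm*.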

How the results depend on the processing

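Counts of called genes, of the 31 and of the other muscle genes, were within 1.5 times the reported ones with both other pseudocounts, the filter on the mean and upper quartile scaling. With the count models on recovered reads they moved for 2 comparisons. For knockout against control, 5 genes were called with limma, 12 with edgeR and 16 with DESeq2, and for clone 18 against control 7 with limma, 16 with edgeR and 16 with DESeq2. The cause was not tested. Leaving out 1 tumor at a time, the count was 3 to 7 for knockout against control (3 without control tumor 3), 3 to 5 for clone 4, 5 to 11 for clone 18 (11 without tumor 12 or without tumor 13) and 3 to 5 between the clones. For the other muscle genes it was 7 to 13, 7 to 9, 9 to 14 and 3 to 5 in the same order (5 without tumor 10 in the last). The log2 ratio of the summed normalized count of the 31 genes, knockout over control, was 0.264, and 0.192 to 0.327 with 1 tumor left out. It was -0.12 when each gene was taken per kilobase of exon, and 1.327 without *Des* and *Eno3*, an alternative chosen after seeing the data. No paired analysis was possible because no label links tumors of different groups. *Mb* and *Xirp1* had a mean normalized count of 5.87 and 6.04, so their values rest on few reads.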
